A study of Mus musculus with 12 samples.

Results

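The 10 genes described here encode inflammatory cytokines of the interleukin-1 (IL-1), interleukin-6 (IL-6) and tumor necrosis factor (TNF) families. They are Il1a, Il1b, Il1rn, Il18, Il33, Tnf, Il6, Osm, Lif and Il11, and they were taken by symbol from a table of 54547 mouse genes. All 10 were among the 29835 genes whose normalized count reached 10 in at least 3 libraries and which entered the tests. Sorted mouse brain cells gave 12 RNA libraries, 3 in each of 4 groups, on a mixed 129;C57BL/6 background. RasV12 GFP+ and RasV12 CD11b+ cells were isolated from tumors of Msi1-CreER;RasV12 mice, in which Cre recombinase fused to a hormone-binding part of the estrogen receptor (CreER) is driven from Msi1, a gene of neural stem cells and glia. RasV12 is an oncogenic form of Ras. Control GFP+ and Control CD11b+ cells were isolated from the cerebellum of Msi1-CreER;GFP mice, so that every group carries the Cre driver, while genotype and tissue of origin change together and cannot be told apart. CD11b is the integrin subunit encoded by Itgam and marks phagocytes, that is microglia, macrophages and neutrophils. No label ties a replicate to an animal of its own, and the sources used here do not state ages, so p-values measure only the spread between libraries, which can be technical. The question addressed is which of the 4 sorted populations carried the mRNA of each cytokine, and whether that differed between tumor and control.

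IL-1α and IL-1β bind the same receptor, whose signal runs through MyD88 and IRAK kinases to NF-κB, and the receptor antagonist encoded by Il1rn occupies that receptor without a signal. IL-18 and IL-33 are further IL-1 family members with receptors of their own. IL-33 is stored in the nucleus and released by damaged cells, and in the brain it is known from oligodendrocytes and astrocytes. IL-1β and IL-18 are made as precursors that caspase-1 cleaves, so their mRNA does not by itself give the amount of active protein. IL-6, oncostatin M (Osm), leukemia inhibitory factor (Lif) and IL-11 signal through receptor complexes that contain gp130 (Il6st) and activate STAT3. TNF is shed from the cell surface by a protease and signals through TNFR1 (Tnfrsf1a) and TNFR2 (Tnfrsf1b).

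Depth, as whole reads recovered per library, lay between 2951629 and 34601205, lowest in RasV12 CD11b+. Itgam was at 5009.8 to 5256.1 normalized counts in control phagocytes, at 1350.2 to 3101.3 in tumor phagocytes and at 0.5 or less in the GFP+ libraries. The summed level of 11 pan-myeloid markers was 103178 to 374796 in Control CD11b+, from 47916 up to 88428 in RasV12 CD11b+, 292.9 to 924.2 in Control GFP+ and 1012 to 1834 in RasV12 GFP+. The summed level of 10 neutrophil markers was lower in tumor CD11b+ cells, at 1635 to 2952 against 17011 to 36219, and Ly6g and Elane had no read there. In GFP+ cells the sum of 9 oligodendrocyte markers was 963347 to 1606962 in controls and 2910 to 17728 in tumors. The sum of 9 astrocyte markers was 274957 to 292436 in Control GFP+ and 36876 to 95952 in RasV12 GFP+, so the markers of both glial types were at lower levels in tumor GFP+ libraries. Olfactory, vomeronasal and trace amine receptor genes, which are not expected in these cells, gave a background of 0.819 to 3.37 normalized counts per kb of exon in GFP+ libraries. That background was 4.60 to 37.5 in Control CD11b+, highest in library 2, and 58.9 to 90.1 in RasV12 CD11b+. Levels of the cytokines are therefore also set against the mean value that receptor genes of the same exon length would have had in the same library. Single receptor genes varied around that mean. Their 90th percentile was 242, 292 and 183 normalized counts per kb in RasV12 CD11b+ libraries 1, 2 and 3. A cytokine at a few times background in those libraries can therefore lie within the range of receptor genes. In sorted bulk samples, fewer cells of a type and less RNA per cell cannot be told apart.

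Promoter windows from 250 bases before to 50 bases after a transcription start were taken from RefSeq (GRCm38.p6), which held 13 windows for 9 of the genes. Those of Lif and Il11, which rose together in tumor GFP+ cells, of Il33, the highest of the 10 genes by length-corrected level in those cells, and of Il1a and Il1b, neighbours on chromosome 2 with different patterns in tumor CD11b+ cells, are shown. Letters are 5′ to 3′ on the strand of the gene, and capitals mark matches to the motif AP-1 (TGANTCA) or to TATAAA. The windows lie at chr11:4257318-4257617 (+) for Lif, chr7:4778092-4778391 (-) for Il11, chr19:29945540-29945839 (+) for Il33, chr2:129309923-129310222 (-) for Il1a and chr2:129371090-129371389 (-) for Il1b. For Il11 and Il33 the second, more downstream of 2 windows is shown.
Lif: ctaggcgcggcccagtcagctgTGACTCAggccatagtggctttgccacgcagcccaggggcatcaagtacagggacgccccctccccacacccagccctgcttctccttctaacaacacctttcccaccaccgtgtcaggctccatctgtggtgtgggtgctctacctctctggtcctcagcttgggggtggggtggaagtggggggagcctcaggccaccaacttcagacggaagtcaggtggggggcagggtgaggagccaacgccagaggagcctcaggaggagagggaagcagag
Il11: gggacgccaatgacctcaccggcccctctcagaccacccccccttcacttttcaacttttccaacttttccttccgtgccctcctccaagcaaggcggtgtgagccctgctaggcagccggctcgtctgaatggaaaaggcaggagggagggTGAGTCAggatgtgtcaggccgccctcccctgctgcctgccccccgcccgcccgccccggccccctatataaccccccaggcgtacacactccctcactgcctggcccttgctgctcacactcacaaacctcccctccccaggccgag
Il33: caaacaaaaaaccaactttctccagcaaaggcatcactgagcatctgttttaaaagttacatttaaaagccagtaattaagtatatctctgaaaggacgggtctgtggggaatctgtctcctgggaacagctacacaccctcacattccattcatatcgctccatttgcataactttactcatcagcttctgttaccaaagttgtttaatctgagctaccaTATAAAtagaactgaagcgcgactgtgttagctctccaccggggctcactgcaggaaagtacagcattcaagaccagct
Il1a: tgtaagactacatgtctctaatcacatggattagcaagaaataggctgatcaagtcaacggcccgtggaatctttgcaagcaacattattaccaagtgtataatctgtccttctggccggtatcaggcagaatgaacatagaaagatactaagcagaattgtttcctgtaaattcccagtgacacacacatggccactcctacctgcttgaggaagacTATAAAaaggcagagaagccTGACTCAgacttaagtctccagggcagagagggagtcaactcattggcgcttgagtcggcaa
Il1b: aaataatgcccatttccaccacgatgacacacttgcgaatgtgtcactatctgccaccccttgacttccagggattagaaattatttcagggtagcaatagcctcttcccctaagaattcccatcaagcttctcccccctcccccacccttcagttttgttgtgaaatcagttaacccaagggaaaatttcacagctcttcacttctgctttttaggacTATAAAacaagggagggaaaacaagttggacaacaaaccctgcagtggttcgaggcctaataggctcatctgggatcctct
An AP-1 match, searched on both strands, began at -228 in Lif, -98 in Il11 and -12 in Il1a, counted from the start site, and others stood in Il6 and in the first window of Il1rn. In all, 5 of the 13 windows held 1, against 7.81% of 32851 mouse windows of the same length. TATAAA, searched on the gene's strand, began at -29 in Il33, -32 in Il1a, -31 in Il1b and -29 in Tnf. It stood in 5 of the 13 windows and in 8.32% of all windows. The NF-κB motif (GGG, any 2 bases and TTTCC, on both strands) was found in Il6 and in 2 overlapping windows of Il1rn, against 1.63% of all windows. No window of these genes held TTCNNNGAA (STAT, 8.3% of all windows) or TGACGTCA (CRE, 1.79%). A match is a run of letters and was not tested as a binding site.

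The cytokines divided by source. Lif, Il11 and Il33 had their highest levels in GFP+ cells of the tumor, Il1a, Il1b, Il1rn, Osm, Il6 and Tnf were higher in CD11b+ than in GFP+ cells in at least 1 of the conditions, and Il18 was found in all groups. By length-corrected level (FPKM, fragments per kb of exon, scaled to library size), Il33 made up 81.1% of the summed FPKM of the 10 genes in RasV12 GFP+ cells, and Il18 made up 75.0% in Control GFP+ cells. The leading gene by FPKM was Il1a in Control CD11b+, with 40.7% of the sum, and Il1b in RasV12 CD11b+, with 46.2%.

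**Figure D1:**
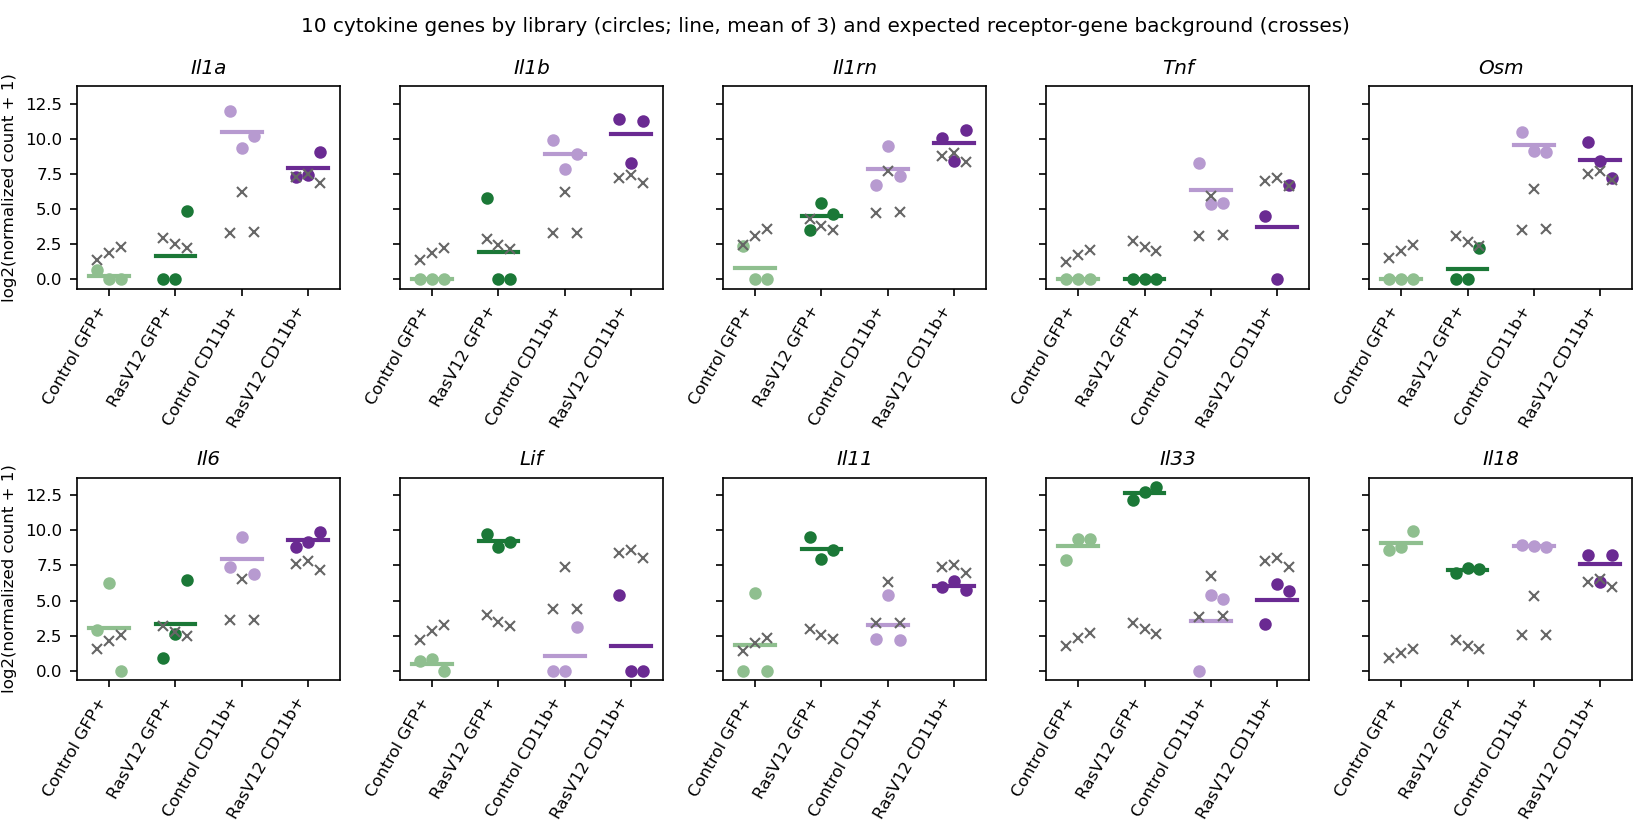
Level of each of the 10 cytokine genes in every library, as log2(normalized count + 1), in 4 groups of 3. Circles are libraries, lines are means of 3, and crosses give the level that the receptor-gene background would give a gene of that exon length. Il33, Lif and Il11 are highest in RasV12 GFP+, while the CD11b+ circles of Il1b stand above their crosses in all 6 libraries.

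Lif, a cytokine named for its effect on leukemia cells and also known to maintain stem cells, was at 0.6, 0.8 and 0 normalized counts in the Control GFP+ libraries and at 849.9, 453.4 and 560.8 in RasV12 GFP+. Every tumor library was far above every control library. With 2 reads in all controls, the ratio of pooled reads was 1229 (95% counting interval 339.9 to 10148), and the adjusted p was 0.00367 (limma-trend, Benjamini-Hochberg over all tested genes, as for every adjusted p here unless another tool is named). In CD11b+ cells Lif was read in 1 library of each group, at 7.8 in Control 3 and 40.1 in RasV12 1. Lif was lower in CD11b+ than in GFP+ cells of the tumor, by a log2 fold change of -7.44 ± 1.50 (SE, n = 3 per group, adjusted p = 0.00315). The tumor change in GFP+ cells was set against that in CD11b+ cells, and the adjusted p of this difference was 0.0504, just above the threshold of 0.05. It passed in 9 of 25 alternatives (adjusted p from 0.000162 to 0.135). Lif lies 16531 bases from Osm on chromosome 11 (Lif at 4257557 to 4272514, + strand), yet Osm had a different source, as given below.

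Il11, which encodes another gp130 cytokine, was at 728.9, 251.1 and 383.8 in RasV12 GFP+ and at 0, 45.7 and 0 in Control GFP+. The groups did not overlap, although all 57 control reads came from library 2. The log2 fold change on the log2(normalized count + 1) scale was 6.84 ± 1.49 (adjusted p = 0.0143). The adjusted p ranged from 0.00261 to 0.136 over 26 alternatives, and the call was lost with edgeR, in a fit of the GFP+ libraries alone, and without RasV12 GFP+ library 1 or 3. In CD11b+ cells Il11 was at 3.9, 41.9 and 3.5 in controls and 62.4, 83.1 and 54.1 in tumors, 0.356 to 0.537 times the receptor-gene background throughout. The difference between CD11b+ and GFP+ cells of the tumor was -2.64 ± 1.49 (adjusted p = 0.170) and passed the threshold in 4 of 26 alternatives, among them subtraction of that background (adjusted p from 0.0015 to 0.364).

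Il33 was at 4464.9, 6760.8 and 8771.9 in RasV12 GFP+ and at 232.2, 665.6 and 654.1 in Control GFP+. The groups did not overlap, with means of 6666 ± 2155 and 517.3 ± 247.0 (SD, n = 3). The log2 fold change was 3.78 ± 1.29 and missed the threshold (adjusted p = 0.105). It passed in 6 of 26 alternatives, among them DESeq2 and the FPKM table (adjusted p from 0.00600 to 0.264). CD11b+ cells held little, at 0, 41.9 and 33.9 in controls and 8.9, 72 and 49.8 in tumors, and the tumor values were at most 0.293 times background. Il33 was lower in CD11b+ than in GFP+ cells by -7.59 ± 1.29 in tumors (adjusted p = 0.00139) and by -5.35 ± 1.29 in controls (adjusted p = 0.00972). In FPKM the level was 138.5 in RasV12 GFP+, against 13.5 for Il11 and 8.57 for Lif, the next genes in that group. Oligodendrocyte and astrocyte marker sums were lower in the tumor GFP+ libraries, as given above, and the part of cell makeup in the values of Lif, Il11, Il33 and Il18 was not tested.

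Il18, whose product induces interferon-γ in lymphocytes, was at 380.7, 458.7 and 1001.1 in Control GFP+ and 124.2, 155.3 and 152 in RasV12 GFP+. All tumor values were below all control values, but the log2 fold change of -1.96 ± 0.70 missed the threshold (adjusted p = 0.127). It passed with DESeq2 and without the 2 RasV12 CD11b+ libraries of lowest depth, a fit in which that group keeps 1 library that is assumed to vary like the others (adjusted p from 0.00538 to 0.806 over 26 alternatives). Control CD11b+ libraries were close together at 489.9, 482 and 457.6, and RasV12 CD11b+ libraries were at 298.6, 77.5 and 305.7. The groups did not overlap there either (log2 fold change -1.30 ± 0.70, adjusted p = 0.247, and from 0.0730 to 0.597 in 26 alternatives). The tumor CD11b+ libraries were at 3.69, 0.834 and 5.03 times the receptor-gene background, so library 2 was not above it. The control CD11b+ libraries were at 103.4, 12.5 and 93.8 times. Il18 overlaps Bco2 and Tex12 on chromosome 9, and since the library kit does not mark strand, reads from shared bases cannot be told apart by strand. These are overlaps of whole gene spans, and how many exon bases are shared was not tested. The same holds for Il1b with its antisense transcript Il1bos and for Il1a with Gm14023.

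In the GFP+ comparison of tumor with control, 2 of the 10 genes, Lif and Il11, were higher and none was lower, while 4.14% of all tested genes were higher and 2.65% lower, 6.79% in all. The median log2 fold change of the 10 was 1.66, against 0.56 for all tested genes. edgeR called 1 (Lif), and over all tested genes 684 higher and 438 lower. DESeq2 called 6, 5 higher and 1 lower, and over all tested genes 3276 higher and 1631 lower. Il1rn, the receptor antagonist, was at 10.4, 41.3 and 24.7 in RasV12 GFP+ and 4.2, 0 and 0 in Control GFP+, without overlap (log2 fold change 3.74 ± 1.14, adjusted p = 0.0698). Il1a, Il1b and Il6 each had most of their RasV12 GFP+ reads in 1 library. Il1a was at 28.6 in library 3 and 0 in the others, Il1b was at 53.3 in library 1 and 0 in the others, and Il6 was at 86.9 in library 3 and 0.9 and 5.2 in the others. Tnf had no read in any GFP+ library, and Osm had reads in 1 of the 6, at 3.6.

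**Figure D2:**
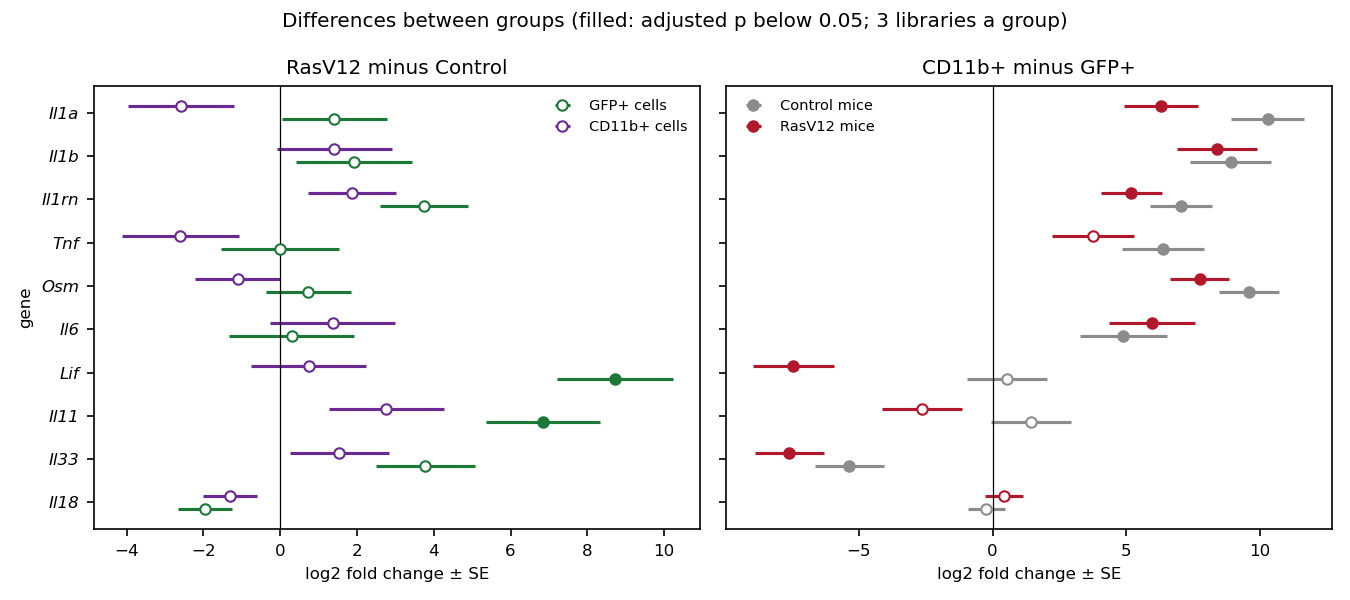
Log2 fold changes with SE of the 10 genes, tumor against control in each cell population (left) and CD11b+ against GFP+ cells in each condition (right), n = 3 libraries per group. Filled circles passed an adjusted p of 0.05 in limma-trend, which on the left are Lif and Il11 in GFP+ cells alone. A fitted change against a group with few or no reads, as for Lif on the left or Osm in controls, depends on the pseudocount of 1.

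Il1a, which encodes IL-1α, was at 3930.4, 661.6 and 1193.4 in Control CD11b+ and 151.5, 171.7 and 544.7 in RasV12 CD11b+. The lowest control lay above the highest tumor library, and the log2 fold change of -2.59 ± 1.37 did not pass (adjusted p = 0.239, and from 0.0602 to 0.675 in 26 alternatives). In RasV12 CD11b+ libraries 1 and 2 the level was 0.979 and 0.965 times the receptor-gene background, and in library 3 it was 4.69 times, so in 2 of these libraries Il1a was not detectable above background. In Control CD11b+ it was 8.94 to 433.1 times background. Against GFP+ cells, Il1a in control CD11b+ cells was higher by a read ratio of 7561 (95% counting interval 1357 to 298663, from 1 GFP+ read). Without Control CD11b+ library 1 that ratio was 4203. In tumors it was higher by 6.30 ± 1.37 (adjusted p = 0.00442), a call lost with edgeR and after background subtraction (adjusted p from 0.00239 to 0.702 over 26 alternatives).

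Il1b, which encodes IL-1β, was at 965.7, 232 and 476.7 in Control CD11b+ and 2651.5, 315.7 and 2417.9 in RasV12 CD11b+. Tumor libraries 1 and 3 exceeded every control and library 2 lay within the control range, so the groups overlapped (log2 fold change 1.41 ± 1.50, adjusted p = 0.564, and from 0.328 to 0.835 in 26 alternatives). Those libraries were at 17.7, 1.84 and 21.5 times background. Control GFP+ cells had no read of Il1b, and control CD11b+ cells were at least 763-fold higher, with 3 reads over all GFP+ controls taken as the floor (adjusted p = 0.00135). In tumors Il1b was higher in CD11b+ than in GFP+ cells by 8.39 ± 1.50 (adjusted p = 0.00181), which edgeR did not call (adjusted p from 0.000608 to 0.0636 over 26 alternatives).

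Il1rn was at 103.5, 705 and 160.2 in Control CD11b+ and 1074, 348.9 and 1575.9 in RasV12 CD11b+. Control library 2, the one with the high receptor-gene background, lay above tumor library 2, and the groups overlapped (log2 fold change 1.88 ± 1.14, adjusted p = 0.3). After background subtraction the difference turned to -0.91, so no direction is given. Il1rn was higher in CD11b+ than in GFP+ cells by 5.18 ± 1.14 in tumors (adjusted p = 0.00474) and 7.04 ± 1.14 in controls (adjusted p = 0.00105), and both calls were lost after background subtraction. The tumor call was lost with edgeR as well, and the adjusted p over 26 alternatives reached 0.304 in tumors and 0.0874 in controls, from 1.35e-05 and 9.67e-09.

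Because the genes of a library share its depth and scaling, ratios of FPKM within a library were compared, a choice made after the values were seen. The FPKM of Il1b was 0.255, 0.366 and 0.415 times that of Il1a in the Control CD11b+ libraries. It was 17.8, 1.89 and 4.56 times that of Il1a in RasV12 CD11b+. Il1b was thus below Il1a in all 3 controls and above it in all 3 tumors, with mean log2 ratios of -1.56 ± 0.36 and 2.42 ± 1.63 (SD, n = 3). The exact two-sided permutation p was 0.1, the smallest that 3 against 3 libraries allow, and 0.133 after adjustment over 4 ratios. For Il1rn over Il1a the mean log2 ratios were -4.12 and 0.31 (exact permutation p = 0.1), for Osm over Il1b 0.43 and -2.07 (exact permutation p = 0.1), and for Il1rn over Il1b -2.56 and -2.11 (exact permutation p = 0.8). Il1a was near 1 times background in tumor libraries 1 and 2, and the part of background in its ratios was not tested. The difference for Il1b over Il1a was 3.98 on the log2 scale and ranged from 3.11 to 4.73 when each CD11b+ library was left out.

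**Figure D3:**
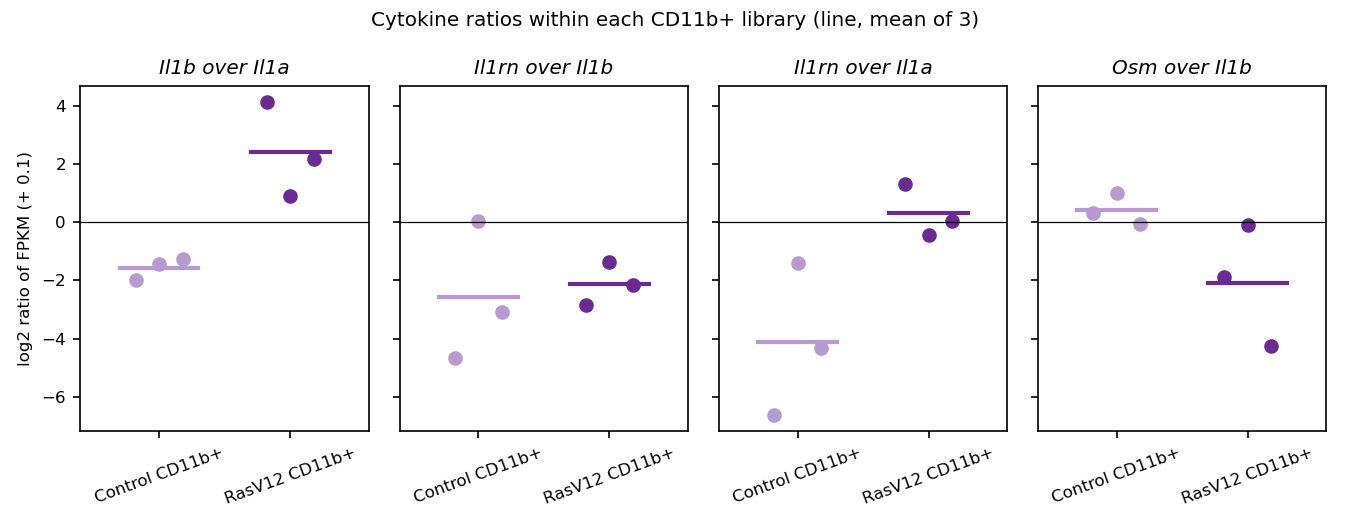
Log2 ratios of FPKM (with 0.1 added) between pairs of cytokine genes in each CD11b+ library, 3 control and 3 tumor. Circles are libraries and lines are means. Il1b over Il1a lies below 0 in the 3 controls and above 0 in the 3 tumors, while Il1rn over Il1b overlaps.

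Osm, the gp130 cytokine of myeloid cells, was at 1451.8, 559.8 and 544.8 in Control CD11b+ and 864.5, 348.9 and 145.9 in RasV12 CD11b+. The groups overlapped (log2 fold change -1.11 ± 1.11, adjusted p = 0.539), and tumor libraries 1, 2 and 3 were at 4.85, 1.70 and 1.09 times background. Osm was higher in CD11b+ than in GFP+ cells under all 26 alternatives in both conditions. In tumors the log2 fold change was 7.74 ± 1.11 (adjusted p = 0.000601), and in controls, where GFP+ cells had no read, Osm was at least 1069-fold higher.

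Il6 was at 166.2, 725.9 and 119.4 in Control CD11b+ and 450.1, 581.5 and 944.7 in RasV12 CD11b+, with overlap (log2 fold change 1.36 ± 1.62, adjusted p = 0.61). In Control GFP+ it was at 6.5, 73.8 and 0. Il6 was higher in CD11b+ than in GFP+ cells by 5.96 ± 1.62 in tumors (adjusted p = 0.0121), a call lost with edgeR, without RasV12 GFP+ library 1 and with library 3 as the only tumor CD11b+ library (adjusted p from 0.00326 to 0.192 over 26 alternatives). In controls it was higher by 4.89 ± 1.62 (adjusted p = 0.0409), a call lost in 13 of 26 alternatives (adjusted p from 0.0158 to 0.206).

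Tnf was at 301.8, 40.4 and 43 in Control CD11b+ and 22.3, 0 and 104.5 in RasV12 CD11b+. The groups overlapped, and in tumors no library exceeded 1.08 times background. Control CD11b+ libraries 1, 2 and 3 were at 40.1, 0.657 and 5.55 times background, so library 2 was not above it either. The fitted difference was -2.60 (adjusted p = 0.284). With library 3 as the only tumor library, since the 2 of lowest depth were left out, it was 0.36, and no direction is given. Against GFP+ cells, with no read, Tnf was at least 157-fold higher in control CD11b+ cells, or 55.3-fold without Control CD11b+ library 1, which held 385 of the 511 reads (adjusted p = 0.00983), a call lost after quantile normalization and background subtraction (adjusted p from 0.000682 to 0.134 over 25 alternatives). In tumors 174 of the 179 reads came from library 3, and the comparison with GFP+ cells did not pass (adjusted p = 0.0645).

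No cytokine of the 10 passed between tumor and control CD11b+ cells with limma-trend, where 2.97% of all tested genes were higher and 2.39% lower, 5.36% in all. None had an unadjusted p under 0.05, and neither edgeR nor DESeq2 called one. Over all tested genes edgeR called 30 higher and 404 lower there, and DESeq2 1316 and 1087. The median log2 fold change of the 10 was 1.05, against 0.74 for all tested genes. Between CD11b+ and GFP+ cells of the tumor, 5 of the 10 were higher (Il1a, Il1b, Il1rn, Il6 and Osm) and 2 lower (Lif and Il33), while 29.8% of all tested genes were higher and 10.2% lower, 40.1% in all. In controls 6 were higher, the same 5 and Tnf, and 1 lower (Il33), while 19.3% of all tested genes were higher and 6.91% lower, 26.2% in all. For the difference between the tumor effects in CD11b+ and GFP+ cells, where 4.40% of all tested genes passed (2.06% higher and 2.34% lower), none of the 10 did with limma-trend, 1 had an unadjusted p under 0.05, edgeR called none and DESeq2 called 2 (Lif and Il1a). In that comparison edgeR called 269 of all tested genes higher and 744 lower, and DESeq2 1466 and 1669. Scaling moved these backgrounds. The median log2 fold change of all tested genes between tumor and control CD11b+ cells was 0.74, 0.21 and 0.13 with the deposited, upper-quartile and quantile scaling, and 55.4%, 29.8% and 30.5% of the calls were higher. For tumor CD11b+ against GFP+ cells the medians were 1.79, 1.19 and 0.30 and the shares 74.4%, 61.5% and 44.7%, and for controls 1.80, 1.70 and -0.02 with shares of 73.7%, 71.9% and 44.3%. For GFP+ tumor against control the medians were 0.56, 0.54 and -0.12 with shares of 60.9%, 61.0% and 49.3%, and for the difference of effects 0.07, -0.47 and 0.16 with shares of 46.9%, 32.2% and 39.8%.

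Receptors of the same cytokines were read in the same libraries. Of 9 IL-1 family receptors and decoys, 3 were higher and none lower in tumor GFP+ cells, where 4.14% of all tested genes were higher and 2.65% lower, and none passed after quantile normalization. Their median log2 fold change was 3.08, against 0.56 for all tested genes. Il18bp, the secreted decoy that binds IL-18, was at 751, 2561.8 and 1928.4 in RasV12 GFP+ and at 0, 0.8 and 2 in Control GFP+. With 3 control reads the ratio of pooled reads was 2226 (95% counting interval 761.4 to 10794, adjusted p = 0.00432). Sigirr, an inhibitory receptor of the family, was at 117, 70.5 and 130.5 against 0.6, 0.8 and 0 (adjusted p = 0.0332), and Il1rl2, the IL-36 receptor, rose by 4.49 ± 1.06 (adjusted p = 0.0211). Il1rl2 and Sigirr lost their calls in 9 and 10 of 26 alternatives, and Il18bp in 2. In CD11b+ cells Il18r1, a subunit of the IL-18 receptor, was the only one of the 9 that passed, with 2.97% of all tested genes higher. It was at 20.4, 55.4 and 14.8 in Control CD11b+ and 565.9, 553.8 and 331.5 in RasV12 CD11b+, without overlap (log2 fold change 4.14 ± 1.08, adjusted p = 0.0421). That call was lost in 17 of 26 alternatives, while Il18r1 stayed higher in CD11b+ than in GFP+ cells of the tumor in all 26 (7.20 ± 1.08, adjusted p = 0.000732).

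Tnfrsf1a, the receptor TNFR1, was at 322.5, 126.7 and 139.4 in Control GFP+ and 3815.1, 3844.7 and 3532.1 in RasV12 GFP+. It rose there by 4.38 ± 0.60 (adjusted p = 0.000857), in all 26 alternatives. In CD11b+ cells it was at 3605.9, 1169 and 3629 in controls and 463.5, 288 and 891.2 in tumors, lower by -2.33 ± 0.60 (adjusted p = 0.0396, lost in 11 of 26). The difference between both effects was -6.71 ± 0.84 (adjusted p = 0.000993) and passed in all 25 alternatives that could give it. Tumor GFP+ cells thus had more Tnfrsf1a than tumor CD11b+ cells (log2 fold change of CD11b+ against GFP+ -2.92 ± 0.60, adjusted p = 0.00329), and control GFP+ cells had less than control CD11b+ cells. Tnfrsf1b, the receptor TNFR2, was at 9723.3, 869.6 and 10197.9 in Control CD11b+ and at 0, 0 and 304.2 in Control GFP+ (log2 fold change 9.36 ± 2.12, adjusted p = 0.00718), a call lost with edgeR and after background subtraction.

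Of the 5 IL-6 family receptors none passed in GFP+ cells between tumor and control, none had an unadjusted p under 0.05, and edgeR and DESeq2 called none. Il6st, which encodes gp130, was at 910.5, 515.7 and 956.3 in Control GFP+ and 716.2, 755 and 829.7 in RasV12 GFP+, so the shared receptor was read in the tumor cells that held Lif and Il11. Il11ra1, the receptor of IL-11, was at 119.7, 150.8 and 104.1 in RasV12 GFP+. Lifr, the receptor of LIF, was at 503.1, 463.2 and 904.5 there, and was lower in tumor than in control CD11b+ cells, at 525.8, 443.1 and 1878 against 5167.4, 2727.2 and 4398.7 (log2 fold change -2.38 ± 0.61, adjusted p = 0.0403, lost in 12 of 26 alternatives). Osmr, the receptor of oncostatin M, was higher in CD11b+ than in GFP+ cells of the tumor (2.85 ± 0.88, adjusted p = 0.0211, lost in 7 of 26). Among the settings that lost the call of Osmr were upper-quartile scaling, edgeR and background subtraction (1.76, limma-trend adjusted p = 0.209). Il6ra, the receptor of IL-6, was higher in CD11b+ than in GFP+ cells of controls, at 4459.5, 3246.6 and 4963.5 against 104.5, 27.3 and 6.1 (7.23 ± 0.89, adjusted p = 0.000159). In tumors the same difference was 3.20 ± 0.89 (adjusted p = 0.0136) and turned to -2.89 after background subtraction.

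**Figure D4:**
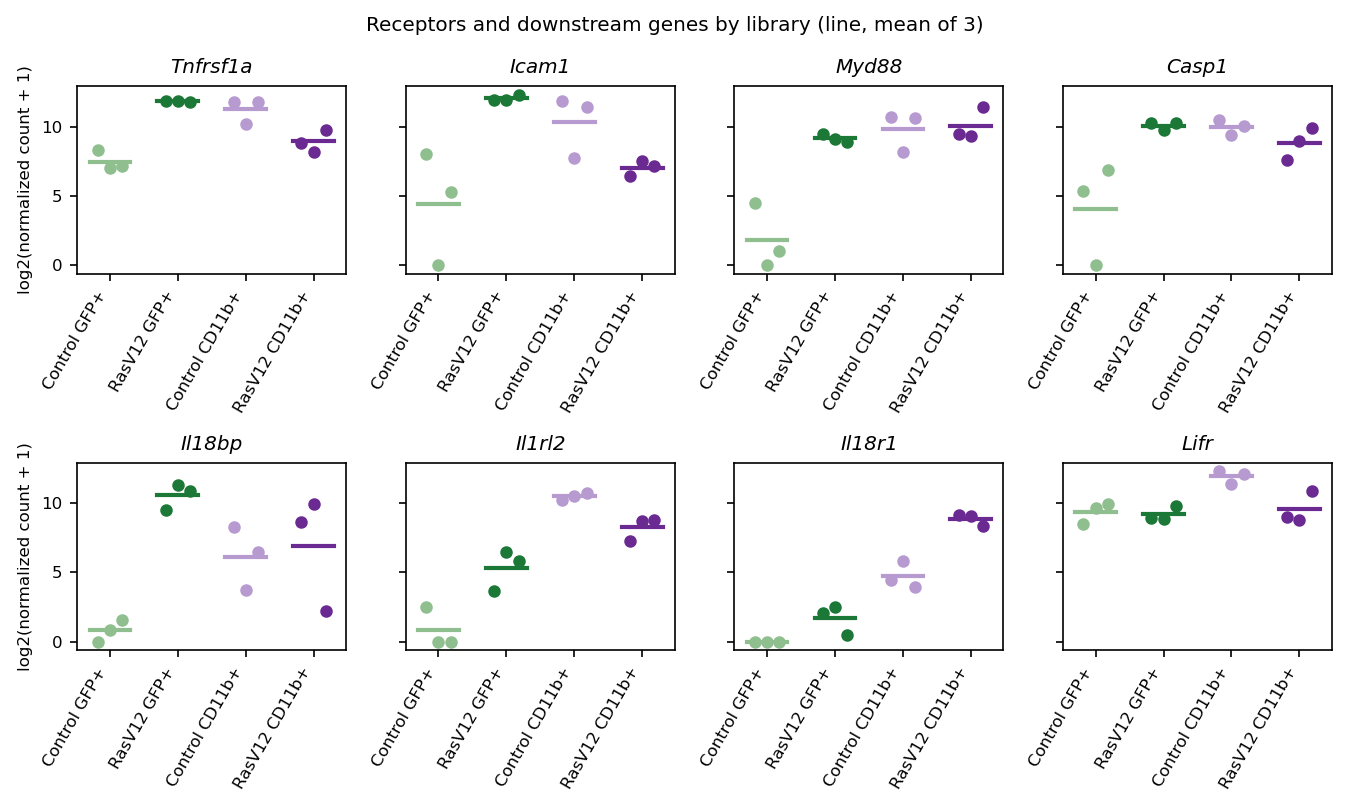
Level of 8 receptor, decoy and downstream genes in every library, as log2(normalized count + 1), in 4 groups of 3 (lines, means). Tnfrsf1a, Icam1, Myd88, Casp1 and Il18bp are higher in RasV12 GFP+ than in Control GFP+, and Tnfrsf1a and Lifr are lower in RasV12 CD11b+ than in Control CD11b+.

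Genes that process the cytokines or carry their signals were read as well. Against the same shares of all tested genes in the GFP+ comparison (4.14% higher, 2.65% lower, median log2 fold change 0.56), 3 of 12 inflammasome and shedding genes were higher in tumor GFP+ cells and none lower, with a median of 1.97. Casp1, the protease that matures IL-1β and IL-18, was at 40.4, 0 and 116 in Control GFP+ and 1223.4, 859.9 and 1223.9 in RasV12 GFP+ (log2 fold change 6.01 ± 1.33, adjusted p = 0.0152, lost in 5 of 26 alternatives). Adam10, a membrane protease, rose by 1.80 ± 0.47 (adjusted p = 0.0343), and Rhbdf2, which helps the TNF-shedding protease ADAM17 to mature, by 6.03 ± 1.63 (adjusted p = 0.0412), with calls lost in 10 and 13 alternatives. In tumor CD11b+ cells Rhbdf2 was at 107, 0 and 3.6 against 458.6, 534.4 and 623 in controls, lower by -6.08 ± 1.63 (adjusted p = 0.0472, lost in 15). In controls 10 of the 12 were higher in CD11b+ than in GFP+ cells, where 19.3% of all tested genes were higher. The count was 8 after quantile normalization and 6 with edgeR. Of all tested genes 1818 were higher after quantile normalization and 2911 with edgeR. Among the 10 were Pycard, the inflammasome adaptor (7.19 ± 1.22, adjusted p = 0.00142), and Gsdmd, the pore protein gasdermin D (9.06 ± 1.33, adjusted p = 0.000543).

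Of 14 adaptor and kinase genes of IL-1 and TNF signalling, 1 was higher and 1 lower in tumor GFP+ cells, with 4.14% of all tested genes higher and 2.65% lower. The median log2 fold changes of the adaptor, NF-κB and STAT3 lists were 1.08, 1.16 and 1.26. Myd88, the adaptor of IL-1 receptors, was at 21.4, 0 and 1 in Control GFP+ and 726.2, 549.7 and 471.4 in RasV12 GFP+. It rose by 7.34 ± 1.13 (adjusted p = 0.00193), in all 26 alternatives. Irak2, a kinase of the same complex, was lower by -2.94 ± 0.83 (adjusted p = 0.0487), a call lost in 18. Of 15 NF-κB subunits and feedback genes only Icam1 passed, an adhesion molecule that both cytokine families induce. It was at 3994.8, 4038.5 and 5192.3 in RasV12 GFP+ against 257.8, 0 and 37.6 (7.67 ± 1.57, adjusted p = 0.0099, lost in 3). Nfkbia, the feedback inhibitor of NF-κB, was at 2370.9, 1907.2 and 994.3 in RasV12 GFP+ and 4008.9, 3266.5 and 1888.2 in Control GFP+ (adjusted p = 0.479). Of 11 STAT3 pathway genes 1 was higher, Socs3, the feedback inhibitor of gp130 signalling, at 969.6, 480.4 and 565.8 against 229.2, 0 and 0 (6.71 ± 1.87, adjusted p = 0.0472, lost in 19). In CD11b+ cells none of the adaptor, NF-κB and STAT3 genes passed between tumor and control with limma-trend, against 5.36% of all tested genes. There 3, 1 and 3 of them had an unadjusted p under 0.05, edgeR called none, and DESeq2 called 1, among the NF-κB genes.

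None of 6 genes of cytokine mRNA decay passed in tumor GFP+ or CD11b+ cells, with 2 at an unadjusted p under 0.05, none called by edgeR and 1 by DESeq2 in each. Zfp36, which encodes the mRNA decay factor tristetraprolin, was at 516.2, 384.1 and 137.3 in RasV12 GFP+ and 2972.3, 448.6 and 803.6 in RasV12 CD11b+. Of 16 other ligands of these families, 12 were in the table and 9 were tested, and none passed between tumor and control in either population. At an unadjusted p under 0.05 there was 1 in each population, edgeR called none, and DESeq2 called 2 in GFP+ and none in CD11b+ cells. The gp130 ligand Ctf1 was lower in CD11b+ than in GFP+ cells of the tumor, as Lif and Il33 were. Ctf1 was at 49.2, 21.2 and 10.7 in RasV12 GFP+ and had no read in CD11b+ cells of either condition. In controls it was lower in CD11b+ cells too (-6.55 ± 1.05, adjusted p = 0.000944). Unlike Lif and Il33, its mean was lower in RasV12 GFP+ (27.0) than in Control GFP+ (100.4).

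The genes whose profile over the 12 libraries was most like that of each cytokine, are given with Pearson's r of log2(normalized count + 1), as a description, since the libraries fall into 4 groups and share their depth and scaling. For Lif they were Arsi, a sulfatase (r = 0.99), Cdkn2a, the locus of the cell cycle inhibitors p16 and p19 (0.99), and Cxcl1, a chemokine of neutrophils (0.97). For Il11 they were Wdr35 (0.96), Nxph1 (0.95) and Kcnq5 (0.94), and for Il33 Npr2 (0.97), Dynll1 (0.97) and Itga3 (0.96). Il1a was most like Cd48 (0.99), a leukocyte surface protein, Arhgap30 (0.98) and Ptpn6 (0.98), a phosphatase of blood cells. Osm was most like Ptpn6 (0.98), Kcnk6 (0.98) and Mmp8 (0.98), a collagenase of neutrophils. Il1b was most like Napsa (0.98), Klra2 (0.97) and Heatr1 (0.97), and Tnf most like Lrrc25 (0.97), Ntpcr (0.95) and Plxna4os2 (0.93). Il6 was most like Olfr592 (0.97), an olfactory receptor gene, with Shcbp1l (0.96) and Ighv14-3 (0.96) next. Il1rn was most like Kdm5a (0.98), with Csn1s2a (0.98), a milk casein gene, and Catsperg1 (0.97), a gene of sperm, next. Il6 and Il1rn in RasV12 CD11b+ cells stood at 2.36 to 6.61 and 0.70 to 4.83 times the receptor-gene background, against 14.9, 7.97 and 10.4 times for Il6 and 4.07, 3.40 and 6.12 times for Il1rn in Control CD11b+. The ranges of tumor and control overlapped for Il1rn and did not for Il6.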

How the data were processed

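Sorted GFP+ and CD11b+ cells from RasV12 tumors and from control cerebellum were sequenced in 12 libraries, 3 per group. Per the labels' protocols, RNA was taken up in Sepazol, and the SMARTer Universal Low Input kit and the Nextera XT kit were used for cDNA and libraries. These kits amplify small inputs and do not keep strand. Per the submitters' processing notes, the build was GRCm38.p6 and the tools were HISAT2 2.1.0, DESeq2 1.20.0, Subread 1.6.2 with featureCounts, and bcl2fastq 2.17.1.14, with no step assigned to a tool.

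The authors deposited normalized counts, treated here as a signal (read counts divided by a factor per library), and FPKM values. In each library at least 99.998% of the deposited normalized counts were multiples of a fixed step (tolerance 0.05 normalized counts), which gave whole reads. Zeros, which fit any step, are included in that share. In RasV12 GFP+ 1 and 3 and in Control CD11b+ 3 the step was small beside the rounding of the table, at 0.452, 0.358 and 0.434. Their reads are therefore less certain. A read was worth 0.358 to 5.54 normalized counts. Gene positions and exon lengths came from GENCODE for GRCm38, which matched 98.5% of gene IDs.

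limma-trend (limma 3.58.1, R 4.3.3) was fitted to log2(normalized count + 1) of all 12 libraries with 1 mean per group. Tested genes had at least 10 in at least 3 libraries, and p-values were adjusted by Benjamini-Hochberg over 29835 genes in each of 5 comparisons, with a threshold of 0.05. The fold of a gene with up to 3 reads in the lower group was taken from pooled reads, with an exact binomial 95% interval, or as a bound against 3 reads over the group where it had none. Intervals and floors cover counting error only. Background was the summed count per kb of 2004 olfactory, vomeronasal and trace amine receptor genes in a library, multiplied by exon length.

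Named were all 10 cytokine genes, a selection of up to 3 genes per pathway list and direction with the smallest adjusted p, the 3 genes with the highest r for each cytokine that passed a comparison (mean of at least 100 in the highest group, no predicted or clone names), and Itgam as a check of the sort. Il6st, Il11ra1, Nfkbia and Zfp36 were chosen after their values were seen, and 1 gene of the pathway lists is counted but not reported here by name. The cytokine genes and the 9 pathway lists were chosen with earlier results of these data known. As alternatives, 26 settings were run: upper-quartile and quantile scaling, the FPKM table, pseudocounts of 0.5 and 10, no filter and a filter of 50, robust variance, fits of the compared groups alone, DESeq2 1.42.0 and edgeR 4.0.16 (TMM) on recovered reads, a block for the replicate number, background subtraction, omission of the 2 shallowest libraries (1 library then stands for RasV12 CD11b+, with the spread of the other groups), and omission of each of 12 libraries. The fits were tested on simulated data with known changes.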

Additional observations from a re-analysis of the deposited data

Results flagged for a closer look

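For 8 of the 83 tested genes of the pathway lists, the tumor effect in CD11b+ cells differed from that in GFP+ cells by a test of the difference itself (limma-trend, Benjamini-Hochberg over all tested genes). Of all tested genes 4.40% passed, 2.06% higher and 2.34% lower. Each of the 8 was lower, on the log2 scale and relative to the effect in GFP+ cells. The difference was -12.11 for Rhbdf2 (adjusted p = 0.0108) and -11.00 for Icam1 (adjusted p = 0.0139). It was -7.17 for Casp1 (adjusted p = 0.0476), -7.10 for Myd88 (adjusted p = 0.0245) and -6.75 for Il1rl2 (adjusted p = 0.023). It was -6.71 for Tnfrsf1a (adjusted p = 0.000993), -2.77 for Adam10 (adjusted p = 0.0321) and -2.26 for Jak1, a kinase of gp130 receptors (adjusted p = 0.042). Of the 25 alternatives that could give this difference, Tnfrsf1a passed in 25, Rhbdf2 in 24, Icam1 in 23, Il1rl2 in 19, Adam10 and Myd88 in 17, Casp1 in 12 and Jak1 in 11. With library 3 as the only RasV12 CD11b+ library, its spread taken from the other groups, Tnfrsf1a and Rhbdf2 passed and the other 6 did not. The receptor-gene background was 58.9 to 90.1 normalized counts per kb in tumor CD11b+ libraries. After its subtraction Casp1 lost its call (limma-trend adjusted p = 0.0625) and the others kept theirs. That subtraction removes a mean level only. The part of any further background and of cell makeup in these differences was not tested.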

How the results depend on the processing

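Precision was set by 3 libraries per group and, in RasV12 CD11b+ libraries 1 and 2, by depth, where 1 read was worth 4.46 and 5.54 normalized counts. The number of cytokine genes called was unchanged at 0 in all alternatives for tumor against control CD11b+ cells. The fit of the CD11b+ libraries alone called 0 of all 29835 tested genes, so its 0 for the cytokines carries no information. In that fit Tnfrsf1a, Lifr, Rhbdf2 and Il18r1 lost their calls between these cells as well. For tumor against control GFP+ cells the number of cytokine genes called was 2. It became 1 with edgeR, 6 with DESeq2, and 1 to 3 when each library was left out (1 without RasV12 GFP+ library 1 or 3). For CD11b+ against GFP+ cells of the tumor it was 7, became 3 with edgeR, and was 6 to 8 without single libraries. For controls it was 7, became 4 after background subtraction, and was 6 to 7 without single libraries. For the difference of tumor effects it was 0, became 1 (Lif) with the FPKM table, upper-quartile scaling, a pseudocount of 10, a filter of 50, background subtraction and without the 2 shallowest libraries, 2 with DESeq2, and was 0 to 1 without single libraries, 1 without Control CD11b+ 2 or RasV12 CD11b+ 1. The fit of the compared groups alone could not be made for it, and Tnf was not tested under the filter of 50. These settings also moved the calls over all tested genes. For CD11b+ against GFP+ tumor cells limma-trend called 8896 higher and 3057 lower, and edgeR 1536 and 3156. For control cells 5765 were higher and 2061 lower, and 1728 and 1931 after background subtraction. For GFP+ tumor against control they were 1235 and 792 with limma-trend, 684 and 438 with edgeR, and 3276 and 1631 with DESeq2. Of 65 fold changes recomputed, 34 lost a call and 7 gained one in at least 1 alternative. Directions reversed for Il1rn in tumor against control CD11b+ cells (-0.91) and Il6ra in CD11b+ against GFP+ tumor cells (-2.89) after background subtraction, and for Tnf in tumor against control CD11b+ cells (0.36) without the 2 shallowest libraries, which leaves 1 tumor CD11b+ library. The cause was not tested. Whether the replicate numbers of the labels pair the libraries could not be settled, since deviations within groups of 3 say little about pairing. Same-numbered libraries of compared groups deviated together with correlations of -0.03 to 0.09. For CD11b+ against GFP+ cells of the tumor these were 0.0170, 0.00494 and 0.0277. Each was above the highest correlation with another number (0.00506, 0.000122 and -0.00993). In the other comparisons not every library correlated best with its own number. With the replicate number as a block, 3 genes were called for tumor against control GFP+ cells and 0 for the same in CD11b+ cells. Under that block 7 were called for CD11b+ against GFP+ tumor cells, 7 for that contrast of control cells, and 0 for the difference of effects.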

Other observations

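Markers of other leukocytes were compared between the CD11b+ groups in which Il1a, Il1b, Osm and Tnf were read. Of 9 tested neutrophil markers, 3 were lower in tumor than in control CD11b+ cells with limma-trend, and none was higher, while 2.39% of all tested genes were lower and 2.97% higher. Of 10 tested markers of recruited monocytes and macrophages none passed in that comparison, and their summed level was 6267 to 17833 in controls and 9944 to 11204 in tumors. The 9 markers of homeostatic microglia in the table summed to 123786 to 381888 in controls and 26342 to 35240 in tumors, and 1 of them was lower. Mast cell markers summed to 236 to 740.9 in control and 1644 to 2847 in tumor CD11b+ cells. Mcpt4 and Tpsb2 had no read in either group and Cma1 none in controls, and none of the 5 tested mast cell markers passed. Lymphocyte markers summed to 189.7 to 1357.5 in controls and 670.9 to 3965.4 in tumors, and none of 9 tested passed. The part of these populations in the levels of Il1a, Il1b, Osm and Tnf was not tested.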
